A study of Homo sapiens with 18 samples.

Results

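Of the 25369 gene symbols counted in D425 and D458 medulloblastoma cells, 50 genes that act in G2 and mitosis are described here, from a list of names drawn up with earlier results of these data known. All 50 had a row in the deposited table and passed the filter on low counts, so they stand among 14850 genes tested. The groups were D425 cells with EYA2 hairpin 6, D425 cells with EYA2 hairpin 8 and D425 cells with a non-targeting control hairpin, and D458 cells with EYA2 hairpin 7, with EYA2 hairpin 8 and with the non-targeting control. Each of the 6 groups had 3 biological replicates, 18 libraries in all. D425 and D458 are established human lines of Group 3 medulloblastoma, a cerebellar tumour, and EYA2 encodes a transcriptional coactivator with phosphatase activity. Control and EYA2 cells alike were transduced, kept in 1 µg/mL puromycin for 48 h, sorted for the brightest 10% by the zsGreen of the construct and left to recover for 24 h, and poly(A) RNA was sequenced with strand-specific libraries. The labels do not say whether the lines are clones, and a population that survived selection and a sort for brightness is what each library samples.

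A dividing cell enters mitosis when cyclins A and B activate the kinase CDK1, which CDC25 phosphatases switch on by removing inhibitory phosphates. Chromosomes are then condensed, attached through kinetochores to a spindle and watched by the spindle checkpoint until the anaphase-promoting complex, a ubiquitin ligase, marks cyclin B and securin for destruction. Most of these genes are transcribed together late in the cell cycle, through B-MYB, FOXM1 and the DREAM and MuvB complexes, which bind CHR elements, and NF-Y, which binds CCAAT boxes. In tumours they are read as a sign of how many cells are cycling. RNA of a whole culture was measured, so fewer cells in G2 and mitosis and less of each RNA in such a cell cannot be told apart.

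Levels are TMM-scaled CPM, each gene's counts as a share of its library. Changes are log2 fold changes, with standard errors derived from the test statistic. Unless another tool is named, an adjusted p is that of the quasi-likelihood test of edgeR, corrected over all 14850 genes by the Benjamini-Hochberg method. A gene was called when its adjusted p was under 0.05. The libraries held 21260369 to 31552051 counts, and the lowest count of any member in any library was 223. EYA2 itself had 15.1, 10.7 and 9.72 CPM with D425 hairpin 6 and 17.5, 12.04 and 12.7 with hairpin 8, against 43.6, 24.6 and 15.5 in D425 controls, so that hairpin 8 replicate 1 was above control 3. In D458 it had 47.5, 51.9 and 45.1 CPM with hairpin 7 and 18.2, 23.5 and 19.3 with hairpin 8, against 73.7, 67.5 and 69.8 in D458 controls, without overlap. The fitted EYA2 level was 42.4% and 50.5% of control with D425 hairpins 6 and 8, and 68.4% and 28.9% with D458 hairpins 7 and 8. Against the control of the same number it was 34.6%, 43.5% and 62.6% with D425 hairpin 6 and 40.2%, 48.9% and 81.5% with hairpin 8. The 68.4% of D458 hairpin 7 did not pass in the unblocked test (adjusted p = 0.137) and did with the replicate block (adjusted p = 0.0069). Of 7 Group 3 markers, 6 reached 1 CPM on average in every group, and NPR3 was at or near 0. The summed level of 6 fibroblast markers moved with the hairpins, at 24.5 to 56.2 CPM with D425 hairpin 6 and 23.9 to 57.8 with hairpin 8, against 4.45 to 8.81 in D425 controls. It was 20.2 to 32.6 CPM with D458 hairpin 7 and 20.3 to 33.1 with hairpin 8, against 2.59 to 4.93 in D458 controls. Within that list COL1A2 and PDGFRA stayed under 1 CPM on average in every group, and its part in the changes of the G2 and mitosis genes was not tested.

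Averaged over the 50 genes, expression was lower with each hairpin than in the controls of the same line. The mean log2 CPM of the members was 6.55, 6.64 and 6.59 in the D425 hairpin 6 libraries and 6.34, 6.59 and 6.34 with hairpin 8, against 6.64, 6.81 and 6.97 in D425 controls, in the order of replicates 1, 2 and 3. In D458 it was 6.16, 6.73 and 6.72 with hairpin 7 and 5.96, 6.79 and 6.76 with hairpin 8, against 6.62, 7.01 and 7.02 in D458 controls. In D425 every hairpin library lay below every control, hairpin 6 by a margin smaller than the rounding, and in D458 the lowest control lay below the hairpin libraries of replicates 2 and 3. The members together took 0.700% ± 0.009 of all counts with D425 hairpin 6 and 0.645% ± 0.053 with hairpin 8, against 0.832% ± 0.089 in D425 controls (SD, n = 3 each). In D458 these shares were 0.616% ± 0.124 with hairpin 7 and 0.612% ± 0.163 with hairpin 8, against 0.751% ± 0.113 in controls.

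**Figure D1:**
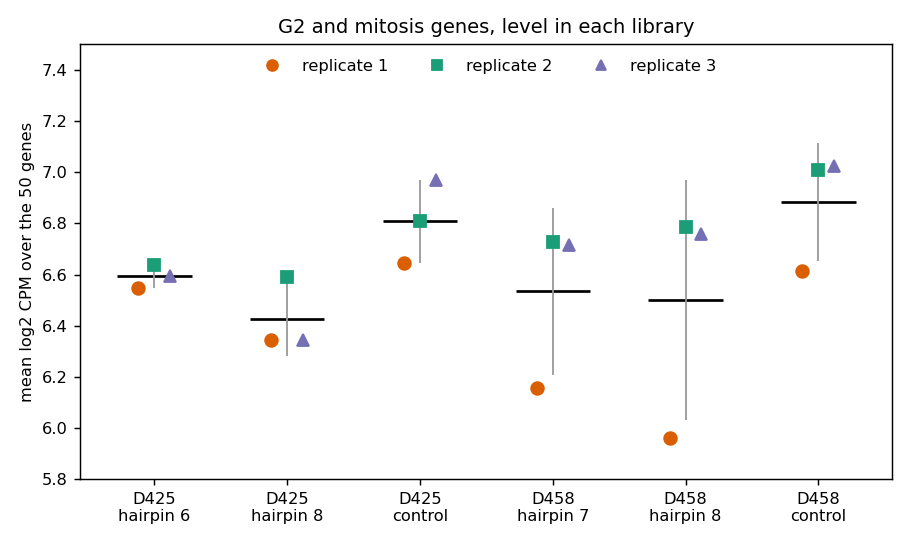
Mean log2 CPM of the 50 G2 and mitosis genes in each of the 18 libraries, hairpin groups left of the control of the same line. Symbols are replicates 1, 2 and 3, each a run label, horizontal bars are group means and vertical lines the SD. In all 12 hairpin libraries the mean is below that of the control of the same number, and within each D458 group replicate 1 lies lowest.

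Libraries with the same replicate number share a run label, so each hairpin library was set against the control of its own run. The labels do not say whether a run is a sequencing run, a library preparation or a transduction. The mean log2 ratio over the 50 genes was -0.10, -0.17 and -0.37 with D425 hairpin 6 in replicates 1, 2 and 3, and -0.30, -0.22 and -0.62 with D425 hairpin 8. In D458 it was -0.46, -0.28 and -0.31 with hairpin 7 and -0.65, -0.22 and -0.27 with hairpin 8. Every one of these 12 means was below 0, with the lowest in replicate 3 of D425, where EYA2 was nearest its control, and in replicate 1 of D458. With D425 hairpin 6, 33, 37 and 48 of the 50 genes lay below their control of the same run, and with hairpin 8, 47, 40 and 50. With D458 hairpin 7 these counts were 47, 48 and 47, and with hairpin 8 they were 50, 47 and 45. Genes below the control in all 3 runs numbered 27 and 37 with D425 hairpins 6 and 8 and 45 and 44 with D458 hairpins 7 and 8, beside 27.1%, 27.7%, 32.6% and 31.6% of all genes tested.

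**Figure D2:**
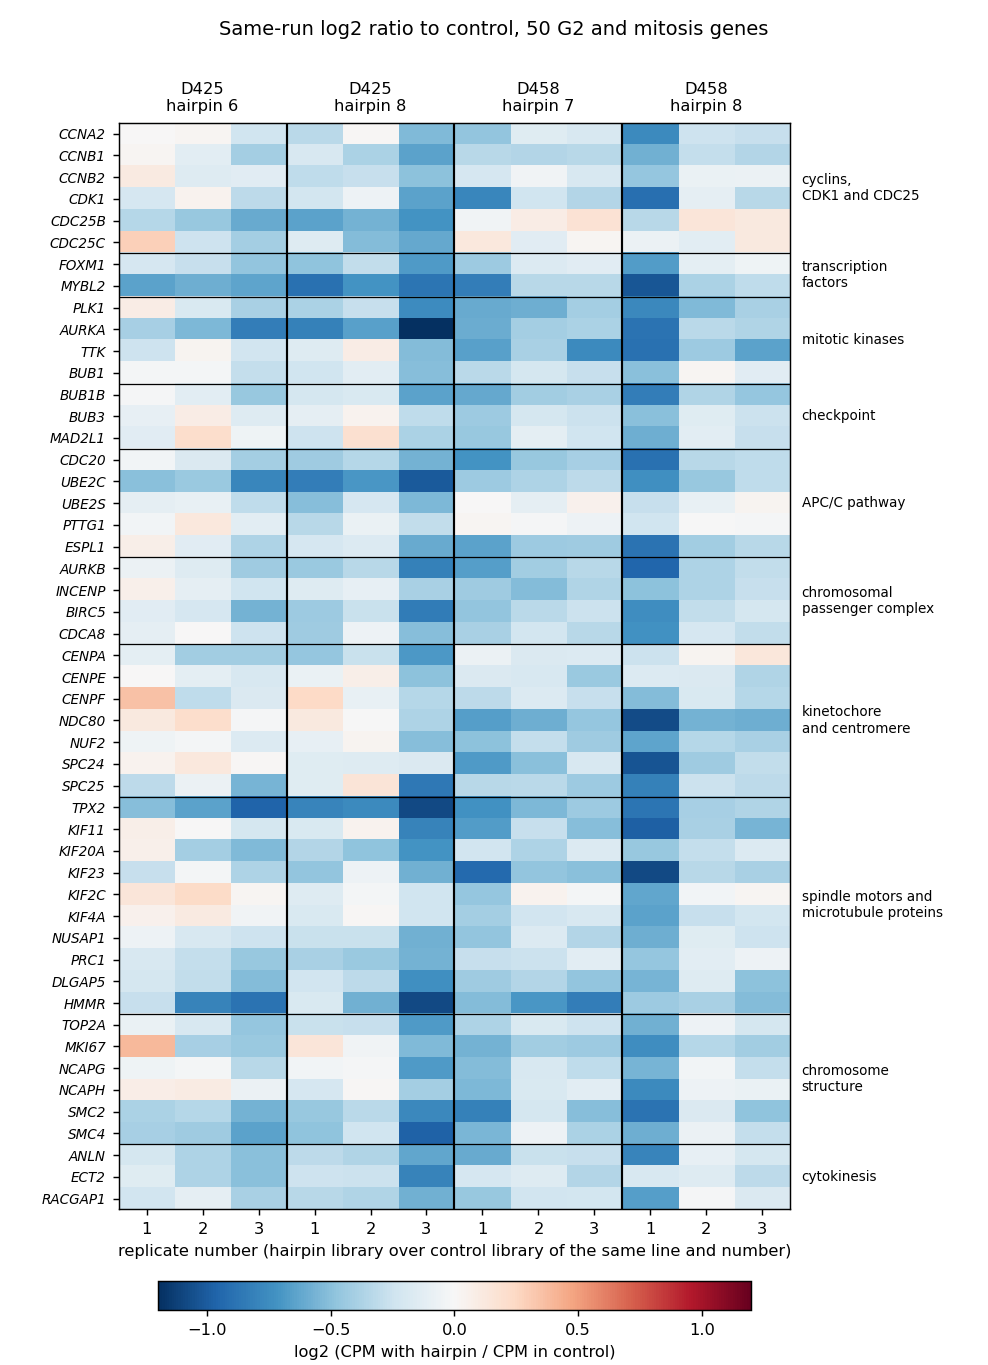
Log2 ratio of each of the 50 genes to the control library of the same run, 1 column per hairpin library and 1 row per gene, grouped by role. Blue is below the control and red above it. Most cells are blue in every column, and the columns of D425 hairpin 6 in replicates 1 and 2 are the palest.

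Without the replicate block few single genes passed. Of the 50 genes, 2 fell with D425 hairpin 6 (TPX2 and SMC2), where 6.84% of all genes tested fell, and 8 fell with D425 hairpin 8 (CDC25B, FOXM1, MYBL2, AURKA, UBE2C, TPX2, SMC2 and SMC4), where 10.1% of all genes fell. In D458, 3 fell with hairpin 7 (BUB3, NDC80 and SMC2) and 4 with hairpin 8 (TTK, BUB3, NDC80 and SMC2), where 11.1% of all genes fell with each. The counts with D425 hairpin 6 and both D458 hairpins are at or below the share of all genes, and the count with D425 hairpin 8 is 16% of the members. No member rose with any hairpin by edgeR or by DESeq2, where 7.31%, 11.6%, 11.5% and 12.1% of all genes rose by edgeR. None was higher at an unadjusted p under 0.05 either, where 14.6%, 18.9%, 19.3% and 19.1% of all genes were. At an unadjusted p under 0.05, 8 and 16 members were lower with D425 hairpins 6 and 8, and 14 and 18 with D458 hairpins 7 and 8, where 13.1%, 16.2%, 18.4% and 18% of all genes were.

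With the replicate number as a block, which compares libraries within a run, many more members passed. The counts of members that fell were then 16 and 34 of 50 with D425 hairpins 6 and 8, and 40 and 39 with D458 hairpins 7 and 8, and again none rose. Of all genes tested, 13.3%, 17.7%, 20% and 19.7% fell with the block, and 14.5%, 19.5%, 20% and 19.9% rose. The median change of the members was -0.18 and -0.37 with D425 hairpins 6 and 8 and -0.33 and -0.37 with D458 hairpins 7 and 8, beside 0.01, 0.02, 0.01 and 0.01 over all genes tested. Single libraries moved 3 of these medians by over 1.5 times: that of D425 hairpin 6 was -0.09 without control 3 and -0.29 without control 1, that of D458 hairpin 7 was -0.18 without its replicate 1, and that of D458 hairpin 8 was -0.14 without its replicate 1. In the same order 44, 50, 49 and 48 of the 50 changes were below 0, where 48%, 47.9%, 48.8% and 48.5% of all genes were. The range over members was -0.71 to 0.13 with D425 hairpin 6, -0.90 to -0.07 with hairpin 8, -0.70 to 0.09 with D458 hairpin 7 and -0.72 to 0.02 with hairpin 8. Members whose 3 hairpin libraries all lay below all 3 controls numbered 19 and 27 in D425 and 11 and 9 in D458, where 17.2%, 17.4%, 21.5% and 20.7% of all genes did. In D458 that share of members is thus about that of all genes.

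The unblocked counts rested on few libraries, and calls over all genes also fell without most single libraries. For D425 hairpin 6 the count was 0 without hairpin 6 replicate 1, 2 or 3, and without control 2 or 3. For D425 hairpin 8 it was 2 without hairpin 8 replicate 1, 4 without hairpin 8 replicate 3, 5 without control 2 and 3 without control 3. For D458 hairpin 7 it was 0 without hairpin 7 replicate 1 or control 3. With D458 hairpin 8 the count was 1 without hairpin 8 replicate 1 or control 3, 2 without control 1 and 7 without hairpin 8 replicate 3. Leaving out all libraries of replicate number 1 gave counts of 20, 33, 19 and 15, while leaving out replicate number 2 gave 0, 1, 0 and 1, and number 3 gave 0, 0, 0 and 1. Over all genes, calls in either direction were 2101, 3221, 3357 and 3442 of 14850 with all libraries. They were 3439, 4146, 2754 and 2235 of 14780 without number 1. Without number 2 they were 116 and 878 of 15056 with D425 hairpins 6 and 8 and 686 with D458 hairpin 7. Calls over all genes are not given here for D458 hairpin 8 without number 2, nor for any hairpin without number 3. Those member counts thus stand without a share of all genes. With the block and without replicate 1, a choice made after seeing the data, the counts of lower members were 27, 34, 25 and 23. Calls over all genes at that setting are not given here. Without the filter on low counts TPX2 lost its call with D425 hairpin 6, CDC25B, FOXM1 and SMC4 with D425 hairpin 8, and TTK with D458 hairpin 8. With the libraries of the line fitted alone, NDC80 lost its call with D458 hairpin 7, SMC2 with both D458 hairpins and TTK with D458 hairpin 8.

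**Figure D3:**
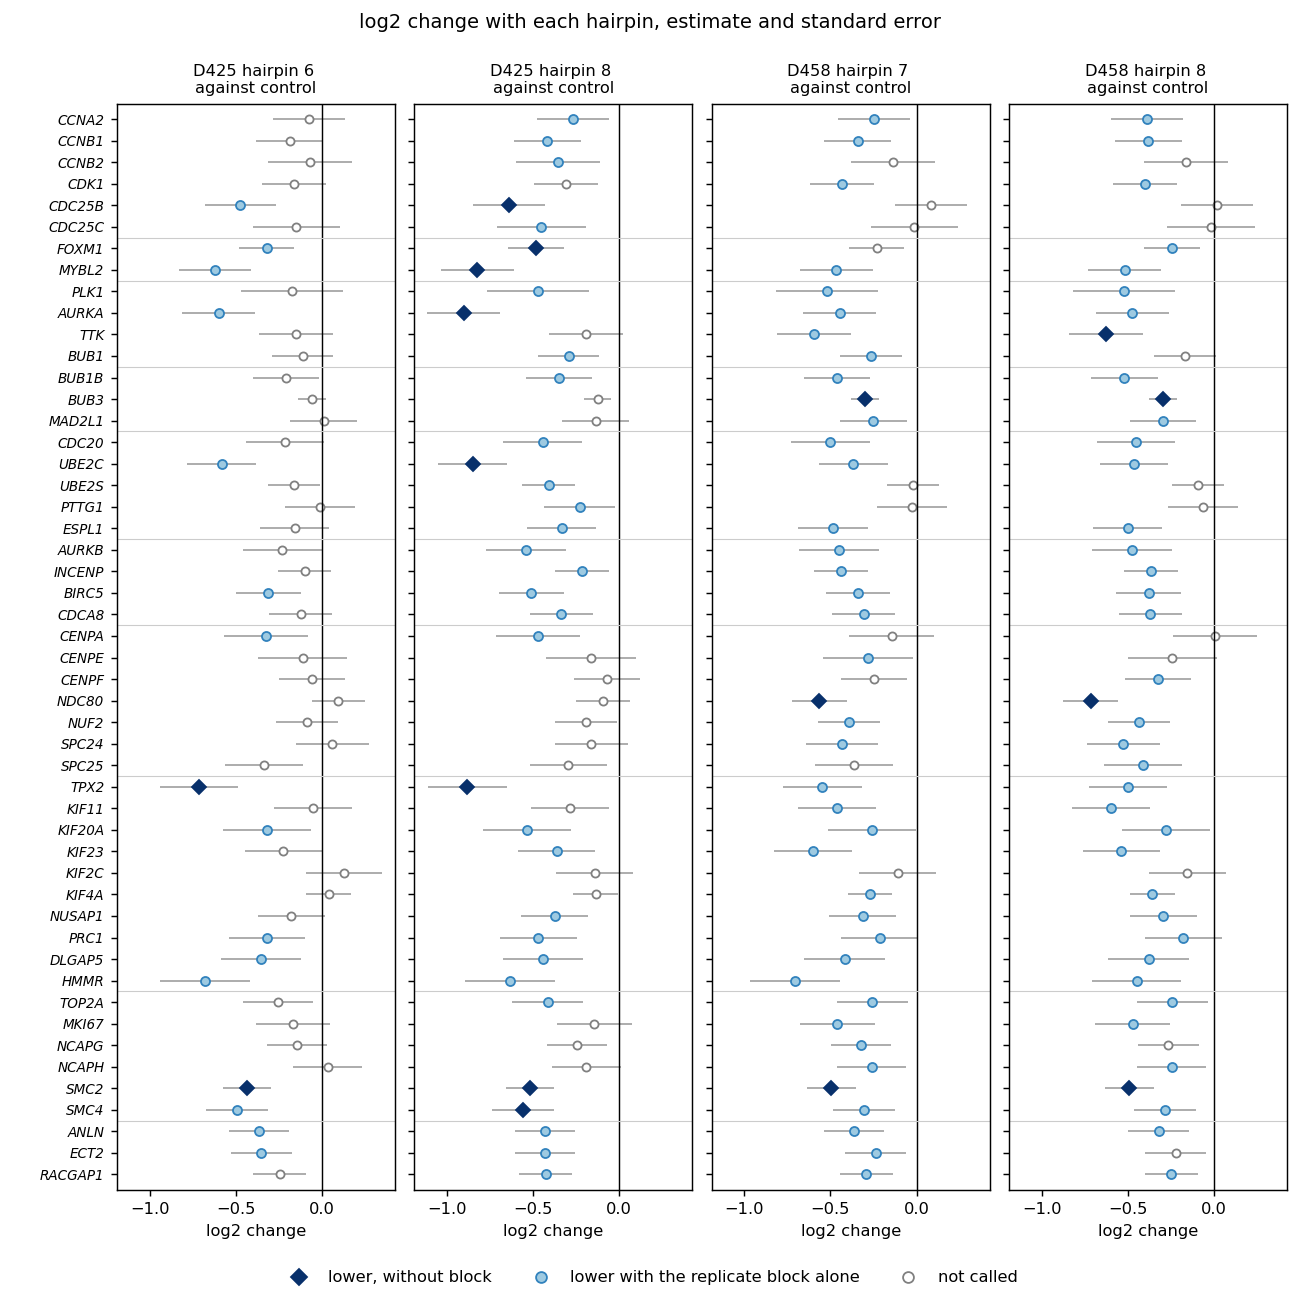
Log2 fold change of each of the 50 genes in the 4 hairpin comparisons, in rows by role, with its standard error, from the unblocked fit. Filled diamonds are genes lower without the block, filled circles those lower with the replicate block alone and open circles those not called. Nearly all points lie left of 0, and the genes that pass without the block are 2, 8, 3 and 4.

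Replicate 1 stood apart in D458 for these genes. With D458 hairpins 7 and 8, 50 of 50 members were lowest in replicate 1, and in D458 controls 48 of 50 were, where 37%, 40% and 36% of all genes were lowest in that library. The median member lay 0.59, 0.85 and 0.38 below the mean of replicates 2 and 3 on the log2 scale in these groups. In D425 hairpin 6, hairpin 8 and control libraries, 29, 26 and 38 members were lowest in replicate 1, beside 38.3%, 33.8% and 38.9% of all genes. Among 46 genes of DNA replication and S phase the same 46 of 46 were lowest in replicate 1 with both D458 hairpins, but only 16 of 46 in D458 controls. Each replicate number carries its own run label. In the labels replicates 2 and 3 share a date and replicate 1 has an earlier one, and what differed between them was not tested. The fits without replicate 1 thus rest on libraries of the same date.

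The promoters of the genes were searched for the CHR and CCAAT letters named above. RefSeq promoter windows of GRCh38.p14, 250 bases before to 50 after a gene's start, were found for 42 of the 50 genes. The CHR letters TTTGAA, on either strand (TTCAAA on the other), stood in the windows of 29 of 42 members (69.0%), beside 18.2% of 27305 genes and 13.7% of 10629 genes tested here. The CCAAT letters, on either strand (ATTGG on the other), stood in 32 of 42 (76.2%), beside 39.7% and 43.3%, and both motifs in 22 of 42 (52.4%), beside 7.26% and 5.71%. A second CHR form, TTCGAA, stood in 3 windows (7.14%), beside 1.82% of 27305 genes. Matches were counted per window, so a site in overlapping windows of a gene counts once for each start. Of 44 CHR matches 30 lay within 50 bases of the start, with a median position of -28.5, while 11 of 75 CCAAT matches did, with a median of -87. A match is a run of letters and not a shown site. The windows from 180 bases before to 20 bases after the start are printed for 4 members, with the CHR and CCAAT letters in capitals. SMC2 (1 of its 2 windows) and NDC80 were picked from the members that passed the unblocked test and have an entry, and PLK1 and CDC20 from those that hold both motifs. CDC25B, MYBL2 and SMC4 also passed that test and have an entry, but are not printed. MYBL2 had no match of any of these letters, CDC25B had the second CHR form and CCAAT letters, and SMC4 had a CHR match at -75. SMC2 lies at chr9:104094129-104094328, NDC80 at chr18:2571377-2571576, PLK1 at chr16:23678709-23678908 and CDC20 at chr1:43358801-43359000, all on the plus strand.
SMC2: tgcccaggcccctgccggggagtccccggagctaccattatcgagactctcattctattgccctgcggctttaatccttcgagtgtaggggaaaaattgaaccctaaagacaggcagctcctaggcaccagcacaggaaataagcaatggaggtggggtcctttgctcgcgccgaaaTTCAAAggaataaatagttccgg
NDC80: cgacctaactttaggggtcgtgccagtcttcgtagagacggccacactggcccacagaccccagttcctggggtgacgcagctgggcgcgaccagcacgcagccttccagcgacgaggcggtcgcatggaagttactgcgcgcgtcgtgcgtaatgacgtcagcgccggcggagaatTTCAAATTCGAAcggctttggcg
PLK1: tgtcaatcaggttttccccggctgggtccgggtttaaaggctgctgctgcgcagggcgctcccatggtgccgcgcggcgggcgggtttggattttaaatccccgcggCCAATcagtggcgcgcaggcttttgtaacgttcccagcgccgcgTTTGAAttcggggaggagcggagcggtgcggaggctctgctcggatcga
CDC20: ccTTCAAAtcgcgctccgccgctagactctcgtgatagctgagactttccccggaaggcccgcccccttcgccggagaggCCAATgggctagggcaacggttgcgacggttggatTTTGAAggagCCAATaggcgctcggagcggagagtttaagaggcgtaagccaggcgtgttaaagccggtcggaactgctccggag
SMC2 and NDC80 hold a CHR match across the start, beginning at -3, and no CCAAT match in this stretch, and in NDC80 the 2 CHR forms adjoin. PLK1 holds 1 of each, with the CHR match at -29 downstream of the CCAAT match at -73. CDC20 holds a pair of each, the CHR matches at -178 and -65.

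The transcription factors of the group, MYBL2 and FOXM1, both fell with D425 hairpin 8. MYBL2, which encodes B-MYB, the MYB partner of the MuvB core in late S phase and G2, had 268, 327 and 317 CPM with D425 hairpin 6 and 225, 299 and 268 with hairpin 8, against 417, 491 and 492 in D425 controls. In D458 it had 142, 235 and 231 CPM with hairpin 7 and 124, 227 and 235 with hairpin 8, against 253, 296 and 292 in D458 controls. All hairpin libraries of MYBL2 lay below all controls of their line. Its change passed with D425 hairpin 8 (-0.82 ± 0.21, adjusted p = 0.012), not with hairpin 6 (-0.62 ± 0.21, adjusted p = 0.061), and in D458 it was -0.47 ± 0.21 and -0.52 ± 0.21 (adjusted p = 0.119 and 0.087). FOXM1, the forkhead factor that binds with it, had 208, 218 and 202 CPM with D425 hairpin 6 and 171, 215 and 176 with hairpin 8, against 240.2, 264 and 281 in D425 controls, with no overlap. Its hairpin 8 change was -0.48 ± 0.16 (adjusted p = 0.042), and in D458 its levels overlapped, at 202, 272 and 277 CPM with hairpin 7 and 172, 279.8 and 293 with hairpin 8, against 273, 304 and 304 in D458 controls. With the replicate block MYBL2 fell with all 4 hairpins and FOXM1 with all but D458 hairpin 7 (-0.25 ± 0.10, adjusted p = 0.052). The MYBL2 call was lost without D425 hairpin 8 replicate 1 (adjusted p = 0.060), and that of FOXM1 without replicates 1 or 3 of hairpin 8 or controls 2 or 3 (highest adjusted p = 0.148).

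Among the cyclins, CDK1 and its CDC25 activators, CDC25B alone passed the unblocked test, with D425 hairpin 8. CDC25B, a phosphatase that starts CDK1 activation at the centrosome, had 171, 196 and 192 CPM with D425 hairpin 6 and 139, 182 and 177 with hairpin 8, against 216, 268 and 290.4 in D425 controls, without overlap. In D458 the groups overlapped, at 118, 172 and 181 CPM with hairpin 7 and 96.6, 179 and 174 with hairpin 8, against 122, 162 and 160.1 in D458 controls, where replicates 2 and 3 of both hairpins were above every control. Its change was -0.64 ± 0.21 with D425 hairpin 8 (adjusted p = 0.038) and 0.02 ± 0.21 with D458 hairpin 8 (interval -0.43 to 0.46), and the D425 call was lost without any of the 3 hairpin libraries or controls 2 or 3 (highest adjusted p = 0.151). CDK1, the mitotic kinase itself, had 43.6, 68.01 and 65.9 CPM with D458 hairpin 7 and 40.1, 74.4 and 66.7 with hairpin 8, against 74.9, 80.3 and 83.9 in D458 controls, and 58.6, 64.2 and 61.2 CPM with D425 hairpin 6 and 57.9, 59.8 and 48.98 with hairpin 8, against 67.3, 62.4 and 76.3 in D425 controls. Only the D425 hairpin 6 libraries of CDK1 overlapped the controls, and with the block it fell with both D458 hairpins (-0.46 ± 0.13 and -0.45 ± 0.13, adjusted p = 0.010 and 0.013). CCNB1, cyclin B1, had 133, 143 and 138 CPM with D425 hairpin 6 and 115, 120.1 and 118 with hairpin 8, against 131, 156 and 184 in D425 controls, and 112, 152 and 167 CPM with D458 hairpin 7 and 94.4, 159.6 and 165 with hairpin 8, against 141, 194 and 210.4 in D458 controls. The hairpin 8 libraries of CCNB1 in D425 were below every control. With the block 1 and 5 of these 6 genes fell with D425 hairpins 6 and 8 and 3 fell with each D458 hairpin. Cyclin B2 (CCNB2), CDC25B and CDC25C did not pass in D458 with the block, with changes of -0.20 ± 0.08, -0.02 ± 0.08 and -0.03 ± 0.11 for hairpin 8.

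Of the 4 mitotic kinases, AURKA passed the unblocked test with D425 hairpin 8 and TTK with D458 hairpin 8. AURKA, Aurora A, which matures centrosomes and the spindle poles, had 92.4, 95.9 and 91.3 CPM with D425 hairpin 6 and 69.7, 88.8 and 67.7 with hairpin 8, against 122, 139 and 162 in D425 controls. In D458 it had 55.4, 79.99 and 86.2 CPM with hairpin 7 and 45.3, 84.5 and 87.4 with hairpin 8, against 83.7, 106 and 112 in D458 controls. AURKA did not overlap its controls in D425 and did in D458, where control 1 was low. The D425 hairpin 8 change was -0.90 ± 0.21 (adjusted p = 0.0071), or 53.4% of control, and it passed when any single library was left out. With the block AURKA fell with all 4 hairpins (-0.59 ± 0.11, -0.91 ± 0.11, -0.46 ± 0.11 and -0.52 ± 0.11). TTK, the kinase MPS1 that starts checkpoint signalling at kinetochores, had 36.2, 59.9 and 48.7 CPM with D458 hairpin 7 and 30.7, 57.9 and 53.1 with hairpin 8, against 57.03, 78.5 and 82.8 in D458 controls, and fell with D458 hairpin 8 (-0.62 ± 0.21, adjusted p = 0.045). In D425 TTK had 30.5, 36.8 and 37.2 CPM with hairpin 6 and 32.4, 38.3 and 30.4 with hairpin 8, against 36.2, 35.9 and 43.5 in controls, and the groups overlapped in both lines. With the block TTK fell with both D458 hairpins (-0.60 ± 0.11 and -0.65 ± 0.11). The unblocked TTK call was lost without replicates 1 or 3 of D458 hairpin 8 or controls 2 or 3 (highest adjusted p = 0.220). PLK1, which drives mitotic entry and centrosome maturation and whose printed window holds both motifs, had 145, 257 and 284 CPM with D458 hairpin 7 and 129, 268 and 289 with hairpin 8, against 221, 386 and 377 in D458 controls. In D425 PLK1 had 253, 282 and 266 CPM with hairpin 6 and 183, 265 and 206 with hairpin 8, against 237, 319.9 and 348 in controls. Replicate 1 was the lowest PLK1 library in every group, and with the block PLK1 fell with D425 hairpin 8 and both D458 hairpins (-0.47 ± 0.09, -0.54 ± 0.09 and -0.56 ± 0.09). BUB1, the fourth kinase, fell with the block with D425 hairpin 8 (-0.30 ± 0.09) and D458 hairpin 7 (-0.27 ± 0.09).

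Of the checkpoint genes BUB3, BUB1B and MAD2L1, whose products hold back the anaphase-promoting complex, BUB3 alone passed the unblocked test, with both D458 hairpins. BUB3 had 107, 119 and 119.9 CPM with D458 hairpin 7 and 102, 124 and 120.1 with hairpin 8, against 145, 137 and 144 in D458 controls, with no overlap. In D425 it had 127, 132 and 129.8 CPM with hairpin 6 and 126, 128 and 117 with hairpin 8, against 136, 124 and 145 in controls, with overlap. Its change was -0.30 ± 0.08 with hairpin 7 and -0.30 ± 0.08 with hairpin 8 in D458 (adjusted p = 0.016 and 0.016), calls lost without replicate 1 of the hairpin or controls 1 or 3 (highest adjusted p = 0.103 and 0.111). BUB1B, or BubR1, a subunit of the inhibitor complex, had 78.6, 115 and 114 CPM with D458 hairpin 7 and 67.7, 119.6 and 109 with hairpin 8, against 120.2, 154 and 150.3 in D458 controls, and 119.9, 137 and 124 CPM with D425 hairpin 6 and 104, 132 and 109.5 with hairpin 8, against 121, 150.1 and 170.4 in D425 controls. MAD2L1, the MAD2 subunit, had 66.7, 108 and 96.6 CPM with D458 hairpin 7 and 61.2, 108 and 94.4 with hairpin 8, against 91.5, 118 and 114 in D458 controls, and 54.9, 67.6 and 62.8 CPM with D425 hairpin 6 and 50.9, 66.6 and 49.8 with hairpin 8, against 60.4, 58.4 and 64.9 in D425 controls. BUB1B was separated from its controls in D458 and MAD2L1 in neither line. With the block all 3 fell with both D458 hairpins, and of the D425 changes that of BUB1B with hairpin 8 passed (-0.35 ± 0.09, adjusted p = 0.0087). Between the lines, the blocked change with hairpin 8 differed (D458 less D425) by -0.18 ± 0.10, -0.20 ± 0.13 and -0.18 ± 0.14 for BUB3, BUB1B and MAD2L1 with the block, and none of these differences passed.

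Of the 5 genes of the anaphase-promoting complex pathway, UBE2C alone passed the unblocked test, with D425 hairpin 8. UBE2C and UBE2S are the ubiquitin-conjugating enzymes that start and extend chains for the complex, CDC20 is its activator, PTTG1 is securin and ESPL1 is separase, the protease that securin restrains. UBE2C had 103, 107 and 99.9 CPM with D425 hairpin 6 and 82.3, 89.8 and 85.7 with hairpin 8, against 146, 146 and 172 in D425 controls, with a gap between both hairpins and the controls. In D458 it had 70.4, 104 and 109 CPM with hairpin 7 and 57.2, 97.8 and 109 with hairpin 8, against 95.5, 134 and 135 in controls, with overlap through control 1. The D425 hairpin 8 change was -0.85 ± 0.20 (adjusted p = 0.0069) and passed when any single library was left out, while hairpin 6 gave -0.58 ± 0.20 (adjusted p = 0.061). UBE2S had 284, 303 and 266 CPM with D425 hairpin 6 and 215, 279.6 and 225 with hairpin 8, against 306, 322 and 327 in D425 controls, without overlap. In D458 UBE2S had 367, 438 and 481 CPM with hairpin 7 and 301, 445 and 477 with hairpin 8, against 365, 473 and 465 in controls, and the groups overlapped. ESPL1 had 55.4, 84.4 and 82.9 CPM with D458 hairpin 7 and 46.8, 85.3 and 88.3 with hairpin 8, against 86.7, 114 and 111 in D458 controls, and 111, 107 and 110.1 CPM with D425 hairpin 6 and 91.99, 105 and 93.6 with hairpin 8, against 106, 117 and 143 in D425 controls. With the block all 5 fell with D425 hairpin 8, UBE2C alone with D425 hairpin 6, and CDC20, UBE2C and ESPL1 with both D458 hairpins (CDC20 -0.53 ± 0.10 and -0.51 ± 0.10). PTTG1 and UBE2S had blocked changes of -0.08 ± 0.07 and -0.11 ± 0.08 with D458 hairpin 8 and did not pass.

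The chromosomal passenger complex corrects attachments and guides cleavage, with Aurora B (AURKB) as its kinase, INCENP as scaffold, and survivin (BIRC5) and borealin (CDCA8) as targeting subunits. Its 4 genes did not pass without the block. INCENP had 109.5, 144 and 144 CPM with D458 hairpin 7 and 105, 160.2 and 153 with hairpin 8, against 148, 207 and 185 in D458 controls, and 186, 196 and 183 CPM with D425 hairpin 6 and 160.2, 197 and 165 with hairpin 8, against 178, 211 and 216 in D425 controls. BIRC5 had 252, 289 and 253 CPM with D425 hairpin 6 and 206, 277 and 210.0 with hairpin 8, against 278, 333 and 375 in D425 controls, and 139, 187 and 197 CPM with D458 hairpin 7 and 116, 191 and 204 with hairpin 8, against 194, 234 and 235 in D458 controls. AURKB had 79.8, 85.6 and 85.9 CPM with D425 hairpin 6 and 61.2, 75.5 and 66.00 with hairpin 8, against 83.6, 95.1 and 116 in D425 controls, and 52.3, 80.1 and 88.3 CPM with D458 hairpin 7 and 42.7, 83.3 and 90.8 with hairpin 8, against 82.7, 107 and 111 in D458 controls. The hairpin libraries lay below all their controls for BIRC5, AURKB and CDCA8 with D425 hairpin 8 and for INCENP with D458 hairpin 7, and overlapped them otherwise. With the block all 4 subunits fell with D425 hairpin 8 and with both D458 hairpins, with changes of -0.48 (AURKB) to -0.31 (CDCA8) on the log2 scale with D458 hairpin 7, and BIRC5 alone fell with D425 hairpin 6.

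Of the 7 kinetochore and centromere genes NDC80 alone passed the unblocked test, with both D458 hairpins. NDC80, NUF2, SPC24 and SPC25 encode the 4 subunits of the complex that grips microtubules, CENPA is the centromeric histone H3 variant, CENPE a kinetochore motor and CENPF a kinetochore and nuclear matrix protein. NDC80 had 16.4, 18.5 and 21.8 CPM with D458 hairpin 7 and 12.3, 18.8 and 20.01 with hairpin 8, against 25.9, 27.8 and 30.1 in D458 controls, and did not overlap them. In D425 it had 34.2, 32.7 and 36.9 CPM with hairpin 6 and 34.2, 28.1 and 28.8 with hairpin 8, against 31.6, 28.2 and 37.3 in controls, and overlapped them. Its D458 changes were -0.56 ± 0.16 (adjusted p = 0.020) and -0.72 ± 0.16 (adjusted p = 0.0058), 67.6% and 60.9% of control. The hairpin 8 call held without any single library, and that of hairpin 7 was lost without its replicates 1 or 2 or controls 2 or 3 (highest adjusted p = 0.112). SPC24 had 18.5, 24.9 and 31.9 CPM with D458 hairpin 7 and 14.5, 26.3 and 29.8 with hairpin 8, against 29.7, 35.2 and 36.5 in D458 controls, and 16.3, 18.99 and 18.3 CPM with D425 hairpin 6 and 14.3, 15.6 and 16.03 with hairpin 8, against 15.9, 17.4 and 18.1 in D425 controls. NUF2 had 27.5, 41.3 and 38.3 CPM with D458 hairpin 7 and 24.9, 39.8 and 39.3 with hairpin 8, against 38.6, 50.3 and 51.5 in D458 controls, and 27.1, 29.7 and 31.8 CPM with D425 hairpin 6 and 26.2, 30.8 and 25.1 with hairpin 8, against 28.1, 30.2 and 35.6 in D425 controls. Both overlapped their controls, in D458 through the single lowest control. With the block 4 and 5 of the 7 genes fell with D458 hairpins 7 and 8, all 4 subunits with hairpin 8 among them, and CENPA alone fell with D425 hairpins 6 and 8 (-0.32 ± 0.11 and -0.47 ± 0.11). CENPA had a blocked change of -0.02 ± 0.11 with D458 hairpin 8, which did not pass.

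Of the 10 spindle motors and microtubule proteins TPX2 alone passed the unblocked test, with both D425 hairpins. TPX2, which activates Aurora A and nucleates spindle microtubules, had 476, 556 and 469.8 CPM with D425 hairpin 6 and 393, 509.7 and 432 with hairpin 8, against 678, 868 and 914 in D425 controls. In D458 it had 210.0, 321 and 351 CPM with hairpin 7 and 189, 353 and 369 with hairpin 8, against 347, 466 and 476 in controls. TPX2 did not overlap in D425 and overlapped in D458 through control 1. The D425 changes were -0.71 ± 0.23 (adjusted p = 0.048) and -0.88 ± 0.23 (adjusted p = 0.013), 61.04% and 54.2% of control. The hairpin 6 call was lost without any library but control 1 (highest adjusted p = 0.177) and the hairpin 8 call without its replicate 1 or control 3 (highest adjusted p = 0.060). HMMR, a spindle assembly factor and TPX2 partner, had 31.97, 30.99 and 33.03 CPM with D425 hairpin 6 and 34.1, 36.2 and 28.8 with hairpin 8, against 38.7, 53.99 and 61.03 in D425 controls, and 35.1, 58.3 and 50.5 CPM with D458 hairpin 7 and 37.1, 72.3 and 62.5 with hairpin 8, against 50.2, 94.6 and 89.6 in D458 controls. KIF4A, a chromosome-bound kinesin, had 90.5, 113 and 119 CPM with D458 hairpin 7 and 76.9, 109.8 and 117 with hairpin 8, against 120.0, 133 and 135 in D458 controls, and 115, 105 and 99.8 CPM with D425 hairpin 6 and 97.6, 98.2 and 86.9 with hairpin 8, against 111, 97.3 and 103 in D425 controls. HMMR was separated from its controls in D425, KIF4A in D458 and KIF23, a midzone kinesin, in both lines. In D458 the change of TPX2 was -0.55 and -0.50 with hairpins 7 and 8, beside -0.70 and -0.45 for HMMR, -0.60 and -0.54 for KIF23 and -0.46 and -0.60 for KIF11, the bipolar spindle kinesin. With the block 5 and 7 of the 10 genes fell with D425 hairpins 6 and 8, and 9 with each D458 hairpin. TPX2, HMMR, the spindle protein DLGAP5, the midzone bundler PRC1 and the midzone kinesin KIF20A fell with all 4 hairpins, with changes of -0.30 (KIF20A) to -0.71 (TPX2) with D425 hairpin 6. The depolymerising kinesin KIF2C passed with none and was above all controls with D425 hairpin 6 and below them with D425 hairpin 8, its blocked change being 0.13 with D425 hairpin 6 and -0.21 with D458 hairpin 8.

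SMC2, the core ATPase of condensin, was called with each of the 4 hairpins, the hairpins of a line sharing their controls. SMC2 had 102, 108 and 107 CPM with D425 hairpin 6 and 97.3, 109.8 and 92.7 with hairpin 8, against 133, 138 and 158 in D425 controls. In D458 it had 80.2, 116 and 102 CPM with hairpin 7 and 76.3, 119 and 104 with hairpin 8, against 141, 134 and 145 in controls. No SMC2 hairpin library reached a control of its line. The changes were -0.43 ± 0.14 and -0.52 ± 0.14 in D425 (adjusted p = 0.049 and 0.016) and -0.49 ± 0.14 and -0.49 ± 0.14 in D458 (adjusted p = 0.021 and 0.021), 74.04%, 69.9%, 71.00% and 71.2% of control. All 4 calls were lost without replicate 1 of the hairpin or control 3, those of D458 also without control 1, that of D425 hairpin 8 also without its replicate 3, and that of hairpin 6 also without its replicates 2 or 3 or control 2 (highest adjusted p = 0.215, 0.084, 0.125 and 0.116). SMC4, its partner in the ring, had 194, 198 and 206 CPM with D425 hairpin 6 and 183, 225 and 164 with hairpin 8, against 256, 265 and 321 in D425 controls, and 186, 303 and 237 CPM with D458 hairpin 7 and 180.3, 302 and 254 with hairpin 8, against 271, 317 and 309 in D458 controls. SMC4 did not overlap its controls in D425 and passed there with hairpin 8 (-0.56 ± 0.18, adjusted p = 0.036), a call lost without its replicates 1 or 3 or controls 2 or 3 (highest adjusted p = 0.159). With the block SMC4 fell with all 4 hairpins (-0.49 ± 0.12, -0.56 ± 0.12, -0.34 ± 0.12 and -0.32 ± 0.12). MKI67, the Ki-67 proliferation antigen that coats mitotic chromosomes, had 298, 451 and 401 CPM with D458 hairpin 7 and 263, 473 and 406 with hairpin 8, against 441, 601 and 541 in D458 controls, and 527, 458.4 and 423 CPM with D425 hairpin 6 and 446, 587 and 398 with hairpin 8, against 402, 604 and 576 in D425 controls. Its groups overlapped in both lines, and with the block it fell in D458 (-0.47 ± 0.15 and -0.50 ± 0.15) and did not pass in D425 (-0.15 ± 0.15 and -0.15 ± 0.15). With the block TOP2A, topoisomerase II alpha, fell with D425 hairpin 8 and both D458 hairpins (-0.41 ± 0.09, -0.27 ± 0.09 and -0.28 ± 0.09), and NCAPH, a further condensin subunit, with both D458 hairpins (-0.29 ± 0.11 and -0.30 ± 0.11).

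The cytokinesis genes ANLN, ECT2 and RACGAP1 encode anillin, a scaffold of the contractile ring, and the exchange factor and centralspindlin subunit that activate RhoA at the cell equator. RACGAP1 had 76.9, 83.4 and 80.8 CPM with D425 hairpin 6 and 71.7, 70.1 and 70.7 with hairpin 8, against 90.1, 90.01 and 106 in D425 controls, and 59.8, 73.5 and 82.9 CPM with D458 hairpin 7 and 51.7, 85.3 and 86.03 with hairpin 8, against 81.9, 86.01 and 96.7 in D458 controls. ANLN had 85.2, 85.4 and 80.5 CPM with D425 hairpin 6 and 79.4, 86.03 and 73.9 with hairpin 8, against 98.8, 110.5 and 114 in D425 controls, and 53.6, 77.98 and 75.8 CPM with D458 hairpin 7 and 46.9, 87.5 and 79.3 with hairpin 8, against 81.4, 93.5 and 91.8 in D458 controls. ECT2 had 104, 114 and 109 CPM with D425 hairpin 6 and 97.2, 123 and 89.2 with hairpin 8, against 115, 147 and 155 in D425 controls, and 120.0, 175 and 153 CPM with D458 hairpin 7 and 120.2, 175 and 158 with hairpin 8, against 138, 195 and 196 in D458 controls. RACGAP1 and ANLN were separated from controls with both D425 hairpins, ECT2 with D425 hairpin 6 and ANLN also with D458 hairpin 7. None passed without the block, the smallest adjusted p being 0.056 for RACGAP1 with D425 hairpin 8. With the block 2 and 3 of the 3 fell with D425 hairpins 6 and 8, and 3 and 2 with D458 hairpins 7 and 8, and ANLN was called in each comparison (-0.36 ± 0.10, -0.43 ± 0.10, -0.39 ± 0.10 and -0.36 ± 0.10).

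The 5 members on chromosome 20, which also carries EYA2, had lower median changes than the other members in D425. CDC25B, MYBL2, AURKA, UBE2C and TPX2 lie there, and their median change was -0.60 and -0.85 with D425 hairpins 6 and 8, beside -0.16 and -0.35 for the 45 members elsewhere. The other genes of chromosome 20 had medians of -0.27 and -0.28 in the same comparisons. In D458 the 5 genes had medians of -0.45 and -0.47 with hairpins 7 and 8, beside -0.31 and -0.36 for the members elsewhere and -0.04 and -0.06 for the other genes of the chromosome. Relative to the median of the other genes of chromosome 20, the 5 genes stood at -0.20 (CDC25B) to -0.44 (TPX2) with D425 hairpin 6 and at -0.36 (CDC25B) to -0.62 (AURKA) with hairpin 8. In D458 MYBL2, AURKA, UBE2C and TPX2 stood at -0.33 to -0.51 with hairpin 7 and -0.41 to -0.46 with hairpin 8, while CDC25B was above that median, at 0.12 and 0.08. SMC2 lies on chromosome 9, whose other genes had medians of -0.30 and -0.27 in D425 and 0.06 and 0.04 in D458. NDC80 lies on chromosome 18, whose other genes had medians of 0.005 and 0.03 in D425 and -0.18 and -0.19 in D458. With each member set against the median of the other genes of its chromosome, 46 and 50 of 50 were lower with D425 hairpins 6 and 8 (medians -0.21 and -0.38) and 49 and 49 with D458 hairpins 7 and 8 (medians -0.39 and -0.40). The part of the chromosome-wide differences in the calls was not tested.

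**Figure D4:**
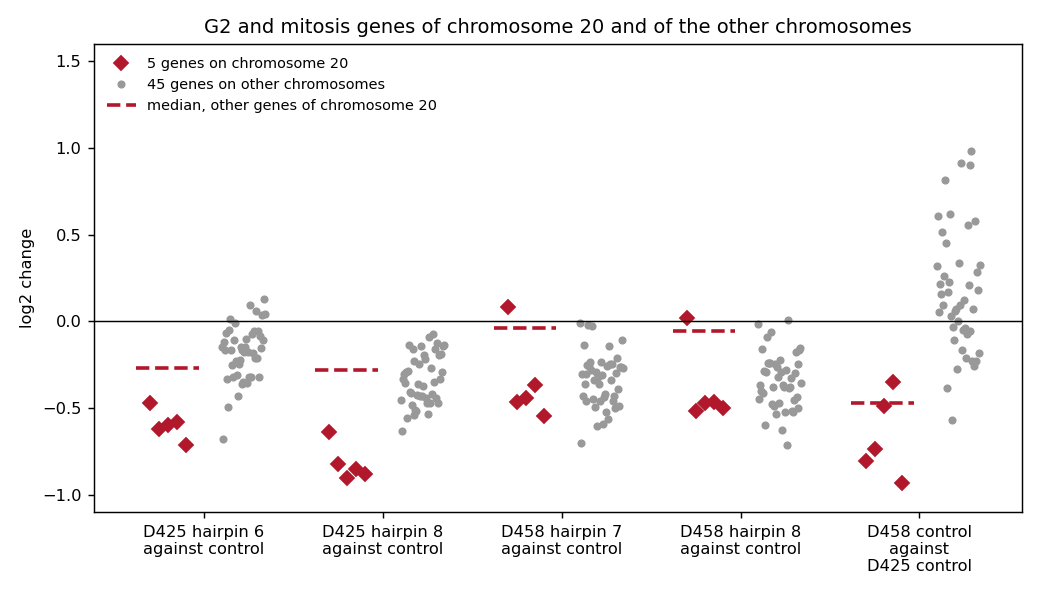
Log2 fold changes of the 5 members on chromosome 20 (diamonds) and the 45 members elsewhere (circles) in the 4 hairpin comparisons and between the control groups, with the median of the other tested genes of chromosome 20 as a dashed line. In D425 that median is -0.27 and -0.28 and the 5 members lie lower still, while in D458 it is near 0.

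The hairpins of a line were compared with each other, and no member differed by edgeR, by DESeq2 or at an unadjusted p under 0.05. At that unadjusted level 1.6% of all genes tested were lower and 1.89% higher with D425 hairpin 8 than with hairpin 6, and 0.943% and 0.902% with D458 hairpin 8 against hairpin 7. After adjustment edgeR called 0 of all 14850 genes in either line, and DESeq2 called 6 of 14835 in D425 and 4 in D458. The median member was -0.17 with D425 hairpin 8 relative to hairpin 6, with 47 of 50 below 0 where 48.1% of all genes were, and 15 members had all 3 hairpin 8 libraries below all 3 of hairpin 6, where 5.73% of all genes did. For AURKA the D425 difference was -0.31 with a 95% interval of -0.75 to 0.14. In D458 the median was -0.01, with 28 of 50 below 0 where 49.8% of all genes were. It was -0.17 without hairpin 7 replicate 1 and 0.21 without hairpin 8 replicate 1, and for NDC80 the difference of hairpin 8 from hairpin 7 was -0.15 with an interval of -0.49 to 0.19. EYA2 in D458 was 48.1 ± 3.43 CPM with hairpin 7 and 20.3 ± 2.77 with hairpin 8 (SD, n = 3 each).

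Hairpin 8 was used in both lines, and its effect in D458 was set against its effect in D425 in 1 model. Without the block no member differed by edgeR or DESeq2, and at an unadjusted p under 0.05 NDC80 was lower and CDC25B higher in D458, where 5.65% of all genes were called lower and 6.19% higher after adjustment and 14% and 13.6% at the unadjusted level. The NDC80 difference was -0.62 ± 0.22 (adjusted p = 0.078) and the CDC25B difference 0.66 ± 0.29 (adjusted p = 0.159). The median member difference was 0.03, with 24 of 50 below 0 where 52.1% of all genes were. Its sign turned with the libraries used, at 0.28 without D458 hairpin 8 replicate 1 and -0.09 without D458 hairpin 8 replicate 2 or D458 control 1, and CDC25B passed without D458 hairpin 8 replicate 1. With the block 2 members were called lower and 4 higher, where 13% and 13.5% of all genes were, shares above those of the members. NDC80 (-0.65 ± 0.15, adjusted p = 0.0053) and TTK (-0.46 ± 0.15, adjusted p = 0.033) were further down in D458. With the block and without replicate 1 neither of these passed (-0.38, adjusted p = 0.081 for NDC80, and -0.33, adjusted p = 0.227 for TTK). The changes of CDC25B (0.62 ± 0.11, adjusted p = 0.0011), UBE2C (0.35 ± 0.11, adjusted p = 0.030), UBE2S (0.31 ± 0.11, adjusted p = 0.045) and CENPA (0.45 ± 0.16, adjusted p = 0.044) were further down in D425. CDC25B and UBE2C lie on chromosome 20, where the median difference of the other genes was 0.21. NDC80 lies on chromosome 18 and TTK on chromosome 6, where it was -0.24 and -0.19. The part of these shifts was not tested. Without replicate number 1, the unblocked fit called 8 members higher and none lower, where 2221 of 14780 genes were called in either direction.

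The control libraries of the lines differed in single members in both directions. In D458 relative to D425 controls 9 members were higher and 4 lower, where 31.4% of all genes were higher and 31.4% lower, and the median of the members was 0.07, with 20 of 50 below 0 where 49.5% of all genes were. Against the median of the other genes of their chromosome 15 of 50 were lower, with a median of 0.12. SPC24 had 29.7, 35.2 and 36.5 CPM in D458 controls and 15.9, 17.4 and 18.1 in D425 controls, a difference of 0.98 ± 0.21 (adjusted p = 7.2e-04). TTK (0.92 ± 0.22), CENPF (0.90 ± 0.19) and MAD2L1 (0.82 ± 0.19) were higher in D458 as well, as were PTTG1, NUF2, CCNA2, UBE2S and KIF4A (0.32 to 0.62). TPX2 had 347, 466 and 476 CPM in D458 controls and 678, 868 and 914 in D425 controls, a difference of -0.93 ± 0.23 (adjusted p = 0.0022), and CDC25B, MYBL2 and BIRC5 were lower too (-0.80, -0.74 and -0.57). Of the 4 lower genes 3 lie on chromosome 20, where the other genes had a median of -0.47, and BIRC5 on chromosome 17, at -0.41. Of the higher genes KIF4A lies on chromosome X, TTK on 6 and SPC24 and UBE2S on 19, where the medians were 0.69, 0.54 and 0.31. KIF4A is thus below the median of its chromosome. The other higher genes lie on chromosomes 1, 4 and 5, at 0.12, 0.07 and 0.20. The part of these shifts was not tested. The calls of SPC24, CENPF, TTK, MAD2L1, NUF2, TPX2, CDC25B and MYBL2 held without any single control library. Without D458 control 2 or control 3 the count of higher members was 5, since CCNA2, UBE2S, PTTG1 and KIF4A lost their calls (CCNA2 also without D425 control 1 or 2, UBE2S without D425 control 1 and KIF4A without D425 control 2 or 3, highest adjusted p = 0.111, 0.082, 0.078 and 0.130). CCNA2 and KIF4A lost theirs without the filter, and KIF4A with RLE scaling. BIRC5 lost its call without D425 control 3 or D458 control 1 (highest adjusted p = 0.065). With the block 15 members were higher and 11 lower, where 35.6% and 34.9% of all genes were.

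**Figure D5:**
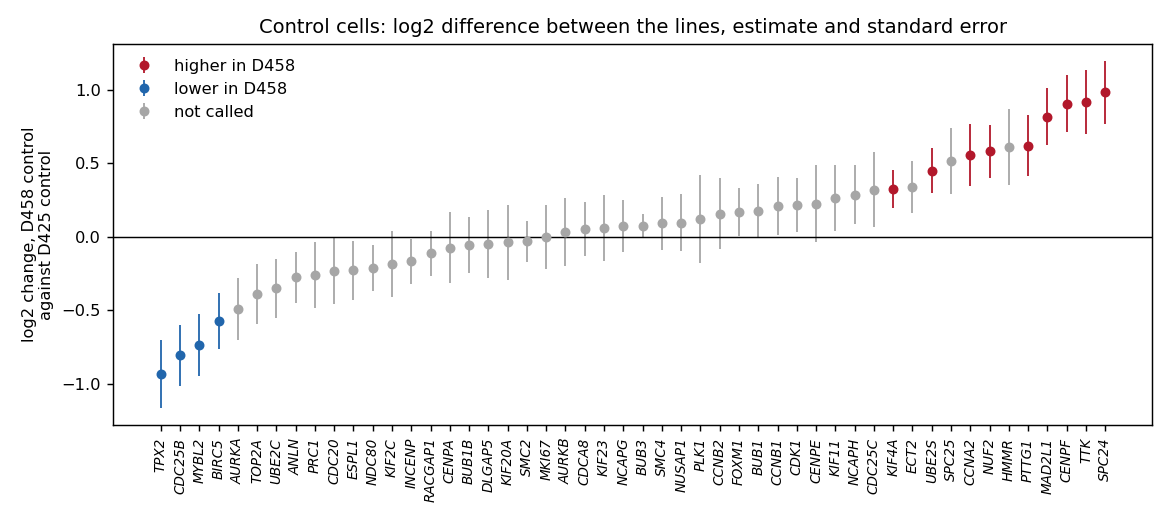
Log2 difference of D458 controls from D425 controls for each of the 50 genes, with its standard error, sorted by size. Red points are the 9 genes called higher in D458, from KIF4A at 0.32 to SPC24 at 0.98, and blue points the 4 called lower.

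Genes of the same processes outside the group were counted from lists chosen with earlier results of these data known. Of 97 other mitosis genes, 7 and 14 fell and 1 and 1 rose with D425 hairpins 6 and 8, and 24 and 23 fell and none rose with D458 hairpins 7 and 8. These are 7.22%, 14.4%, 24.7% and 23.7% of the list, where 6.84%, 10.1%, 11.1% and 11.1% of all genes fell. With the block 24, 37, 67 and 71 fell and 1, 2, 1 and 1 rose, and the medians were -0.11, -0.20, -0.33 and -0.32. The lowest adjusted p in D425 belonged to ANAPC2, the cullin subunit of the anaphase-promoting complex (-0.61 ± 0.11 and -0.70 ± 0.11), and CDC16, another subunit, rose with hairpin 6 (0.28 ± 0.07). In D458 ZW10, which recruits dynein to kinetochores, fell with hairpins 7 and 8 (-0.55 ± 0.11 and -0.56 ± 0.11), and SKA1, a microtubule-binding kinetochore protein, fell with hairpin 8 (-0.90 ± 0.20). Of 46 genes of DNA replication and S phase, 3 and 7 fell with D425 hairpins 6 and 8 and 25 and 28 with D458 hairpins 7 and 8, with medians of -0.07, -0.26, -0.44 and -0.49, and none rose. These are 6.52%, 15.2%, 54.3% and 60.9% of that list. With the block 4, 20, 38 and 42 of them fell, and 1 rose with D458 hairpin 7. DUT, which keeps uracil out of DNA, fell in D458 (-0.61 ± 0.10 and -0.54 ± 0.10). CCNE1, cyclin E1, and E2F1, a factor of S phase entry, fell in D425 with hairpin 6 (-0.46 ± 0.13 and -0.55 ± 0.15) and hairpin 8 (-0.83 ± 0.13 and -0.74 ± 0.15). The part of the chromosome-wide differences in these lists was not tested.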

How the data were processed

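Poly(A) RNA of 18 libraries (6 groups of 3) was sequenced, strand-specific per the labels' protocols. The deposited table gives raw whole-number read counts per gene symbol. The authors' steps named TopHat2, Bowtie2 and HTSeq beside bcl2fastq, FastQC, Picard and SAMtools, with the builds hg19 and GRCh37, per the submitters' processing notes. Their versions, the strand option of the counting and the rule for multi-mapped reads are not given in the sources at hand, so counts of genes with close copies or antisense partners are uncertain.

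With R 4.3.3 and edgeR 4.0.16, filterByExpr (minimum count 10) left 14850 genes and removed 10519. Libraries were scaled by TMM, and 1 robust quasi-likelihood fit covered all 18 (12 residual degrees of freedom, common BCV 0.153). The 8 comparisons were tested with Benjamini-Hochberg correction over all genes. A standard error is the size of the log2 change over the square root of the F statistic of its test. The 95% intervals were built from it with the t distribution. The replicate block added the replicate number within each line (8 residual degrees of freedom). Same-run ratios are log2 of CPM over the control of the same line and number.

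A replicate number goes with 1 run label in all groups, per the labels. After removal of group means, same-numbered libraries correlated at 0.08 to 0.61 in D425 (mean 0.30) and at 0.13 to 0.70 in D458 (mean 0.35), and differently numbered ones at means of -0.14 and -0.17. No pair of replicates was alike within sampling noise. The labels call replicates biological but not separate cultures, so p values measure the spread between these samples.

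The 50 members and all gene lists were chosen with earlier results of these data known. Values in every library are given for up to 3 members of each role, those with the smallest adjusted p over the hairpin comparisons. Of wider lists up to 4 called genes per comparison could be named. Other members are named for their role. Motifs were searched as exact letters in the RefSeq windows. Alternatives were DESeq2 1.42.0, RLE scaling, no filter, each line alone, the block, and leaving out each library and each replicate number. Chromosomes were matched by symbol for 14532 of 14850 genes. Counting error at 223 or more counts per member is small beside the spread between replicates, and depth ran from 21260369 to 31552051.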

Additional observations from a re-analysis of the deposited data

Results flagged for a closer look

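The hairpin 8 effect differed between D458 and D425 for 6 members when the replicate number was a block, by the edgeR test of the difference itself. Of the members 4% were lower and 8% higher, below the 13% and 13.5% of all genes tested. The D458 effect minus the D425 effect was -0.65 for NDC80 (adjusted p = 0.0053) and -0.46 for TTK (adjusted p = 0.033). It was 0.62 for CDC25B (adjusted p = 0.0011), 0.35 for UBE2C (adjusted p = 0.030), 0.31 for UBE2S (adjusted p = 0.045) and 0.45 for CENPA (adjusted p = 0.044). With the block and without replicate 1, NDC80 and TTK did not pass (adjusted p = 0.081 and 0.227), and the other 4 did (0.77, 0.48, 0.34 and 0.56 for CDC25B, UBE2C, UBE2S and CENPA). Without the block none of the 6 passed, the smallest adjusted p being 0.078 for NDC80. CDC25B and UBE2C lie on chromosome 20, whose other genes had a median difference of 0.21. NDC80 lies on chromosome 18 and TTK on chromosome 6, at -0.24 and -0.19, the 2 lowest medians of 23 chromosomes. UBE2S and CENPA lie on chromosomes 19 and 2, at 0.09 and 0.05. The part of these shifts was not tested.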

How the results depend on the processing

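The count of lower members moved with the replicate block (the pairing by run label) and with the replicates used. With the block it was 16 and 34 with D425 hairpins 6 and 8 and 40 and 39 with D458 hairpins 7 and 8, against 2, 8, 3 and 4 without it. The hairpin 8 difference between lines then had 2 members lower and 4 higher, and the control groups 11 lower and 15 higher. Of all genes, 13% and 13.5% were lower and higher in that difference, and 34.9% and 35.6% between the control groups. With the block and without replicate 1, chosen after seeing the data, the lower counts were 27, 34, 25 and 23, the line difference had none lower and 13 higher, and the controls 10 lower and 18 higher. Calls over all genes at that setting are not given here. With each line fitted alone the lower counts were 10, 28, 1 and 2. Over all genes, 1955 and 3186 of 14128 were then called in either direction in D425, and 2727 and 2731 of 13739 in D458. DESeq2 gave 7 with D425 hairpin 6 and 7 with each D458 hairpin. Over all genes DESeq2 called 2541, 3876 and 3939 of 14835 in these comparisons, against 2101, 3357 and 3442 of 14850 by edgeR. Without the filter the D425 counts were 1 and 5, where 1772 and 2774 of 21454 genes were called in either direction. Leaving out libraries or replicate numbers gave 0 to 20 and 0 to 33 in D425 and 0 to 19 and 1 to 15 in D458, 2 to 10 lower and 4 to 18 higher between controls, and 0 to 8 higher in the line difference. The cause of these differences was not tested. No called member changed sign under any alternative run, and RLE scaling left every count within 1.5 times. No member was called higher with a hairpin than in its controls under any of these runs. The lowest count of a member in any library was 223.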
